A study of Homo sapiens with 3 samples.

Results

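The metallothionein and zinc response genes of LX-2 cells were 9 of the 26108 genes in the deposited table, chosen by gene symbol. They comprised 7 metallothioneins (MT1A, MT1E, MT1F, MT1G, MT1M, MT1X and MT2A), the zinc-sensing transcription factor MTF1 and the zinc exporter SLC30A1. LX-2 is a single immortalized line of human hepatic stellate cells, the collagen-producing cells of the liver, and the study asked how FGF19, an endocrine growth factor, acts on such cells. Poly(A) mRNA was sequenced from 1 vehicle-treated culture and from 1 culture each with recombinant human FGF19 (rhFGF19) at 50 and 100 ng/mL, here called the lower and the higher dose. Each condition had 1 library, so no comparison had a replicate check or a p-value. The series design and the paper give 24 h of stimulation, whereas the sample descriptions give 72 h for one rhFGF19 library, 73 h for another, and the opposite doses. Doses were taken from the sample titles, which match the column names, and which library received which dose cannot be told apart beyond these labels.

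Metallothioneins are very small, cysteine-rich proteins that bind zinc, copper and cadmium through their thiol groups, buffer free zinc and scavenge reactive oxygen species. When cytosolic zinc rises, MTF1 binds short metal response elements in the promoters of metallothionein genes and of SLC30A1, whose product ZnT1 moves zinc out of the cell across the plasma membrane. Metallothioneins are abundant in liver, are induced by heavy metals and glucocorticoids as well as zinc, and MT2A is the form expressed most widely in human tissues.

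The metallothionein genes form a cluster on chromosome 16. In the deposited coordinates, which overlap those of GRCh38 for the same identifiers, the 7 members lay between 56608584 (start of MT2A) and 56684196 (end of MT1X), a stretch of 75.6 kb. All were on the plus strand except MT1G. In GENCODE v29, each has 3 exons and a coding sequence of 186 bases, that is 61 codons and a stop codon, and in each of the 7 exactly 20 codons (32.8%) are TGC or TGT, the codons of cysteine. In MTF1 only 21 of 753 codons are TGC or TGT, and in SLC30A1 18 of 507.

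The coding sequences below are those of MT2A, the member with the highest level, of MT1E and MT1M, the next in level, and of MT1G, which is the closest in sequence to MT2A but was almost absent from the libraries. They were read from GENCODE v29 transcripts (GRCh38), and capitals mark the cysteine codons.
MT2A: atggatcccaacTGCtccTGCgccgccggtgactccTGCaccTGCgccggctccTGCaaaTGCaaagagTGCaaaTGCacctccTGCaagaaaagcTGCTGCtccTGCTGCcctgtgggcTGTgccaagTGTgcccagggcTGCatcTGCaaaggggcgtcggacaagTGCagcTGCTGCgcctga
MT1E: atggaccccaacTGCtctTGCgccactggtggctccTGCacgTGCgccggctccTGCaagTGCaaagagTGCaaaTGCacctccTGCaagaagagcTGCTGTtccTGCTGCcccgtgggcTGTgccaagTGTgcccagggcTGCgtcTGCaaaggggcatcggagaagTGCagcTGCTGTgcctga
MT1M: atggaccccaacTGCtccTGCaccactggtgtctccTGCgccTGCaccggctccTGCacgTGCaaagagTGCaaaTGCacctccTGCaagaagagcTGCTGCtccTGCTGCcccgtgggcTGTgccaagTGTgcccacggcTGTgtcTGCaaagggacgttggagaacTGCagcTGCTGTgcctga
MT1G: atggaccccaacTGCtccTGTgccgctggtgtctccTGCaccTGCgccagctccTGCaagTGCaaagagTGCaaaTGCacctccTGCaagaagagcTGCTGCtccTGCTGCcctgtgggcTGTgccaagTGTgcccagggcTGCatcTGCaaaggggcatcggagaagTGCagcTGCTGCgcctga

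The 20 cysteine codons fall at the same places in all 4 sequences. Over the 21 pairs of members the identity of the coding sequences ranged from 88.7% to 95.2%, with a median of 91.9%. The closest pair was MT1G and MT2A, with 177 of 186 bases identical. Because of this likeness, reads of 1 metallothionein can also match another. Among stretches of 50 bases, 4.88% of those in the MT2A transcript, 5.34% in MT1E, 7.05% in MT1M, 3.59% in MT1F, 5.76% in MT1A, 20.2% in MT1G and 45.1% in MT1X were also found in a transcript of another gene. With stretches of 100 bases, only MT1X still shared any, at 19.1%. None of these was shared with a gene whose symbol begins with MT. The genes that share them were not identified, so likeness to a metallothionein sequence listed under another name was not tested. Such stretches also enter the 45.1% of MT1X at 50 bases. SLC30A1 shared none at either length. The read length and the handling of shared reads are not given in the sources used here, so the levels of the low metallothioneins, and of MT1X in particular, are uncertain beside that of MT2A.

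Promoter sequences from RefSeq (GRCh38.p14) were matched for 4 of the 9 members, MT2A, MT1X, SLC30A1 and MTF1. They are shown because MTF1 is known to act through such elements. Each is the 250 bases before the annotated start, read 5′ to 3′ on the strand of the gene, and capitals mark matches to the metal response element cores TGCACNC or TGCGCNC on either strand.
MT2A, chr16:56608334-56608583, plus strand: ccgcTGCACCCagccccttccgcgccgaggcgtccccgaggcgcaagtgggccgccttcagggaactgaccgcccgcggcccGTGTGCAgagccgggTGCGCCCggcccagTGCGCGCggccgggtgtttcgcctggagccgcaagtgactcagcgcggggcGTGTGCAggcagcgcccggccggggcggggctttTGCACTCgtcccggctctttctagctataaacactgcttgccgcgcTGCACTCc
MT1X, chr16:56682220-56682469, plus strand: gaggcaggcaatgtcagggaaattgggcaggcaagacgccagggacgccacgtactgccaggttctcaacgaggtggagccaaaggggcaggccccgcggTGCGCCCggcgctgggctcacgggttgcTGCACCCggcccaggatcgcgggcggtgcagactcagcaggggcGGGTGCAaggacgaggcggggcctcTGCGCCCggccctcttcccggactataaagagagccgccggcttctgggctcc
SLC30A1, chr1:211579162-211579411, minus strand: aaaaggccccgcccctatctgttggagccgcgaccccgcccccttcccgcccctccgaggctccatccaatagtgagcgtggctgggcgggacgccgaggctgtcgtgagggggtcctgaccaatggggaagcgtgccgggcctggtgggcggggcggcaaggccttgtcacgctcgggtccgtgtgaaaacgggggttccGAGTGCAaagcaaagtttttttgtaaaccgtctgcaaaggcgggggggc
MTF1, chr1:37859593-37859842, minus strand: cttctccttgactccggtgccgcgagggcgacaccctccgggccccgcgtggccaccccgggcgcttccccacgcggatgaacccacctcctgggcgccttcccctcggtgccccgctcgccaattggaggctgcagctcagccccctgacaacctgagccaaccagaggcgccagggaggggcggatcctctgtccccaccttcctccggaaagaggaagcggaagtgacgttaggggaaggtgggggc

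The MT2A promoter held 7 cores, at 246, 168, 153, 139, 88, 54 and 8 bases before the start, none of them overlapping. MT1X held 4 cores, SLC30A1 held 1 at 49 bases before the start, and MTF1 held 0. Of 35116 promoter windows of the same length, 24.8% held at least 1 core, 0.37% held 4 or more and 0.0313% held as many as MT2A. The windows of MT2A, MT1X, SLC30A1 and MTF1 had a GC content of 73.2%, 70%, 66.4% and 70%. The cores are rich in G and C, and the shares were not matched for the GC content of the windows. Both metallothionein promoters also contained the TATA box letters TATAAA, at 29 bases before the start in MT2A and 30 in MT1X, letters found in 6.8% of all windows. These are matches of letters in a window and not measured binding sites.

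**Figure D1:**
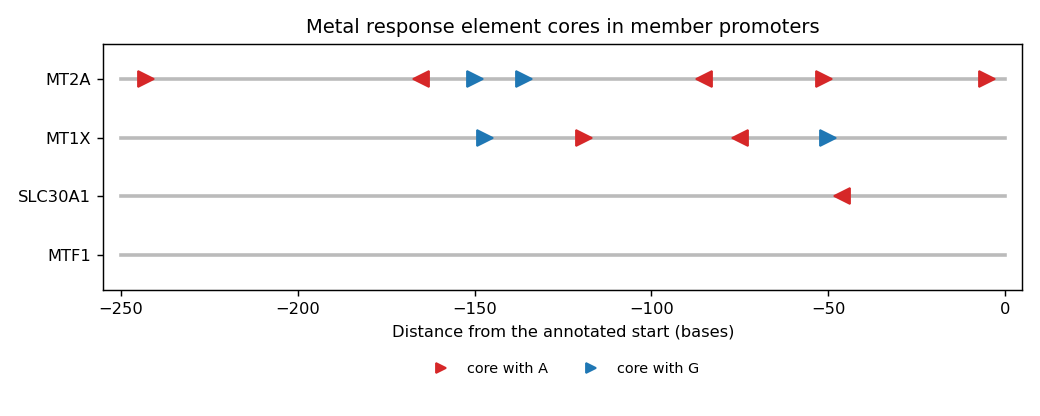
Positions of the metal response element cores in the 250 bases before the annotated start of MT2A, MT1X, SLC30A1 and MTF1. The horizontal axis is the distance from the start in bases, arrowheads point right for the strand of the gene and left for the other strand, red marks the core TGCACNC (with A) and blue the core TGCGCNC (with G). MT2A carries 7 cores, MT1X 4, SLC30A1 1 and MTF1 0.

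The values in the table are FPKM, that is fragments divided by transcript length and by the fragments of the library that were mapped, so levels can be set side by side between genes, while the read depth is unknown. Of the stellate cell and fibroblast markers, 7 of 10 had a mean of at least 1 FPKM. VIM was between 438.7 and 654 FPKM, whereas LRAT was listed at 0 in all 3 libraries and COL1A2 and DES were at most 0.14. Summed levels were 0 to 0.12 FPKM for the epithelial markers analysed and 0.48 to 0.5 for the endothelial ones. The summed hepatocyte markers were 11.3 to 12.5 FPKM, nearly all from SERPINA1 and ALB, and the blood markers 2.54 to 4.28, nearly all from CD14, which was highest with vehicle. The part of other cell types in the results was not tested. Fold changes are differences of log2(FPKM + 0.1), which understates the change of low genes, and 12422 of 24254 gene symbols had a mean of at least 0.5 FPKM over the 3 libraries, the filter for counting. The median log2 fold change of these symbols against vehicle was 0.62 at each dose. A gene without a difference from vehicle thus lay below most genes of the table.

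MT2A (ENSG00000125148, chr16:56608584-56609497) dominated the metallothionein pool of LX-2 cells, and it was lower in both rhFGF19 libraries. Its level was 1253 FPKM with vehicle, 764 with the lower dose and 824 with the higher dose, rank 23, 35 and 33 among all gene symbols of the respective library. The vehicle library was the highest of the 3, and the rhFGF19 libraries lay close to each other. MT2A made up 96.3% of the summed FPKM of the 7 metallothioneins with vehicle, 95.2% with the lower dose and 95.9% with the higher dose. Its log2 fold change was -0.71 with the lower dose and -0.60 with the higher dose, which is 0.61 and 0.66 times the vehicle level. In RNA from a whole culture, a smaller share of cells that express a gene and less of its RNA per cell cannot be told apart. Neither value passed 2-fold, the criterion that the paper uses for a changed gene. The rhFGF19 libraries differed by 0.11 for MT2A on the log2 scale, within the range of other genes at its level, since 95% of the 451 symbols whose mean reached 100 FPKM differed by no more than 0.12. Such a spread is that of libraries with different doses and is no replicate error. Only 8.52% of all symbols that passed the filter had a lower fold change with the lower dose, and 11.8% with the higher dose.

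MT1E and MT1M, the next in level, were lower with rhFGF19 as well. MT1E (ENSG00000169715, 56625475 to 56627112) had 26.3 FPKM with vehicle, 21.2 with the lower dose and 18.4 with the higher dose. Its log2 fold changes were -0.31 and -0.51. MT1M, the next member in the cluster (ENSG00000205364, 56632659 to 56633981), had 12.6, 8.31 and 8.07 FPKM in the same order. The fold changes of MT1M on the log2 scale were -0.60 and -0.64. For both genes the vehicle value was the highest of the 3. All 4 differences exceeded 0.25. That is the size that 95% of the 4052 symbols at 5 to 30 FPKM did not exceed between the rhFGF19 libraries. MT1E itself differed by -0.20 between those libraries. The size is no measure of the spread between vehicle and rhFGF19 cultures. The median of all symbols against vehicle, 0.62 at each dose, exceeded 0.25 too, so passing 0.25 does not set either gene apart. Of the symbols that passed the filter, 24.5% and 15.6% had a lower fold change than MT1E with the lower and the higher dose. For MT1M these shares were 13.1% and 10.2%.

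The other metallothioneins were near the vehicle level. MT1F was listed at 4.21 FPKM with vehicle, 3.72 with the lower dose and 4.29 with the higher dose. MT1X had 3.40, 3.81 and 3.38 FPKM, and MT1A had 1.29, 1.77 and 1.41. Their log2 fold changes lay between -0.17 and 0.43 with the lower dose and between -0.0083 and 0.12 with the higher dose. In this range of expression, 1 to 5 FPKM, 95% of 4865 symbols differed by no more than 0.55 between the rhFGF19 libraries, with an SD of 0.33, and none of these 3 genes differed from vehicle by more than that. The sign of their fold changes was not the same under every scaling tried. MT1G was listed at 0.12 FPKM with vehicle and at 0 with either dose, far below the filter, and no fold is given for it.

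**Figure D2:**
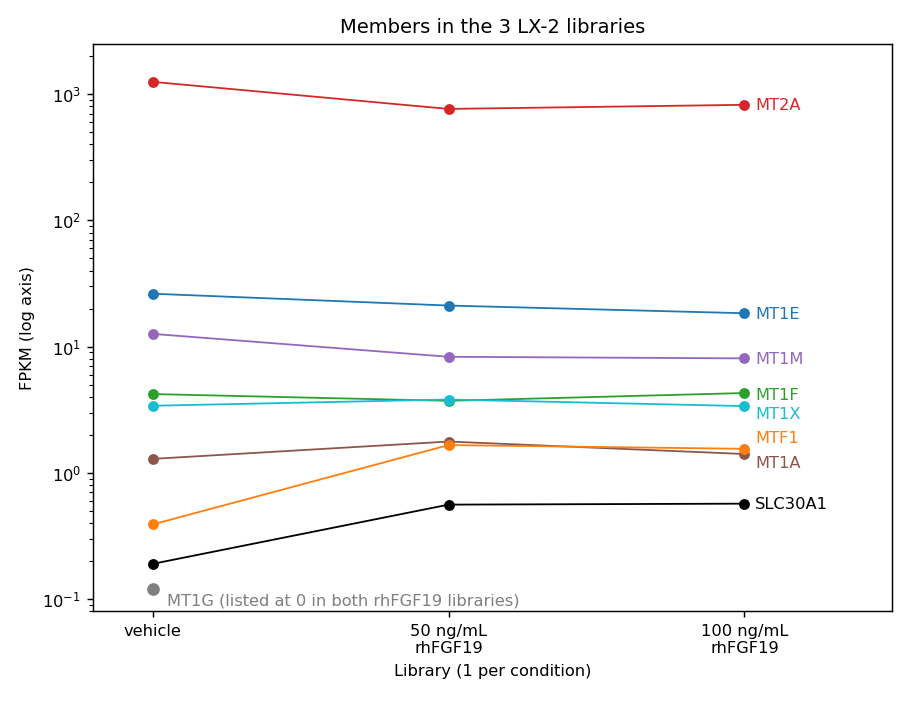
FPKM of the 9 members on a log axis in the vehicle, 50 ng/mL and 100 ng/mL rhFGF19 libraries, 1 point per library. MT2A stands alone at 764 to 1253 FPKM and is highest with vehicle, while MTF1 and SLC30A1 start at 0.39 and 0.19 and are higher in both rhFGF19 libraries.

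The order of the members was nearly the same in each library. MT2A exceeded MT1E 47.7-fold with vehicle, 36.1-fold with the lower dose and 44.8-fold with the higher dose. MT1E exceeded MT1M 2.08-fold, 2.55-fold and 2.28-fold. MT1M was followed by MT1F and MT1X, which changed places between libraries with ratios of MT1F to MT1X of 1.24, 0.98 and 1.27. MT1A and MTF1 also exchanged places. The ratio of MT1A to MTF1 was 3.31 with vehicle but 1.07 and 0.91 with rhFGF19.

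Summed over the 7 metallothioneins, the level was 1301 FPKM with vehicle, 803 with the lower dose and 859.7 with the higher dose. These sums were 0.43%, 0.29% and 0.305% of all FPKM of the library. The log2 fold change of the sum was -0.70 with the lower dose and -0.60 with the higher dose. Without MT2A the other 6 summed to 47.9, 38.8 and 35.5 FPKM, with log2 fold changes of -0.30 and -0.43. MT2A thus had a larger relative difference than this sum at both doses. Taken alone, MT1M was slightly lower than MT2A with the higher dose, at -0.64 against -0.60. The likeness of other genes to this pattern was measured as the distance between the pair of log2 fold changes, over 3 libraries and the 3789 symbols whose mean reached 10 FPKM. The nearest were INO80E, MIR3648-2, MRPL24, SLC35B2 and CUTA, at distances of 0.0042 to 0.010. INO80E, the nearest, had 17.8 FPKM with vehicle, 10.9 with the lower dose and 11.7 with the higher dose. CUTA, the last of those named, had 202.7, 125.8 and 134.5 FPKM in the same order.

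MTF1 (ENSG00000188786, chr1:37809574-37859592, minus strand), the activator that raises metallothionein transcription when zinc is bound, went the other way. It had 0.39 FPKM with vehicle, 1.66 with the lower dose and 1.55 with the higher dose. Both rhFGF19 libraries lay above vehicle by more than the 0.55 given above for a mean of 1 to 5 FPKM. The median of all symbols against vehicle, 0.62 at each dose, exceeded that size too, so passing it does not set MTF1 apart. The log2 fold changes were 1.84 and 1.75, or 3.59-fold and 3.37-fold on the scale with the pseudocount. Of the symbols that passed the filter, 96.1% had a lower fold change with the lower dose and 94.6% with the higher dose. SLC30A1 (ENSG00000170385, chr1:211571568-211579161, minus strand) had 0.19 FPKM with vehicle, 0.56 with the lower dose and 0.57 with the higher dose. Its mean of 0.44 FPKM missed the filter, so it does not enter the counts, and its log2 fold changes of 1.19 and 1.21 rest on very low values. The ratio of MT2A to MTF1 in FPKM was 3213 with vehicle, 460.5 with the lower dose and 531.7 with the higher dose.

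Of the 9 members 7 passed the filter. Among these 7, MTF1 alone was more than 2-fold higher than with vehicle, at either dose, where 39.5% and 38.6% of all symbols were. No member was more than 2-fold lower at either dose, where 1.75% and 1.47% of all symbols were. The median log2 fold change of the 7 was -0.17 with the lower dose and -0.0083 with the higher dose, and that of the 6 metallothioneins among them was -0.24 and -0.26, against 0.62 over all symbols. The share of all symbols that were higher and lower with the lower dose depended on the scaling, with 30.3% and 6.33% when the median ratio to vehicle was set to 0 over the symbols at 1 FPKM or more in every library (the median over all symbols counted was then 0.39), and 8.98% and 10.5% with quantile normalization. With a trend on length or on GC content removed, 14.0% and 3.74% were higher and 16.2% and 5.11% lower. Both comparisons share the single vehicle library. Between the rhFGF19 libraries no member differed more than 2-fold, as did 1.64% of all symbols, and the largest difference was the 0.31 by which MT1A was lower with the higher dose.

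The base composition of the transcripts moved with these fold changes. Over 12397 symbols, the Spearman correlation across genes between transcript GC content and the log2 fold change was -0.77 at each dose, and 0.068 between the rhFGF19 libraries. These genes share the same 3 libraries and are not independent replicates. The 6 metallothioneins that passed had a transcript GC content of 50.5% to 61.2%, taken as the median over the transcripts listed for each gene, and MTF1 had 46.7%. In the deciles of all symbols by GC content, the median log2 fold change with the lower dose was 1.13 in the decile that holds MTF1, 0.86 in that of MT1A, 0.43 in that of MT1E and MT1X, 0.035 in that of MT1F and MT2A, and -0.43 in that of MT1M. With this trend removed, the log2 fold change of MTF1 was 0.72 with the lower dose and 0.65 with the higher dose, and that of MT2A was -0.92 and -0.80. MT2A and MTF1 thus kept their directions but MTF1 no longer passed 2-fold. The values of MT1M were then -0.21 and -0.27, smaller in size than those reported above. Those of MT1E were -0.60 and -0.80, larger in size.

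For MT2A the result also depended on which transcript stands for the gene. Its longest coding transcript has a GC content of 63.0%, higher than that of 91.3% of symbols, while the median over its listed transcripts is 54.2%. With the GC content of the longest coding transcript of every gene, a choice made after seeing the data, the log2 fold change of MT2A with the trend removed was -0.25 with the lower dose and -0.16 with the higher dose. The same step gave 0.77 and 0.70 for MTF1. The part of GC content in the differences between vehicle and rhFGF19 was not tested, and there was a single library without rhFGF19.

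**Figure D3:**
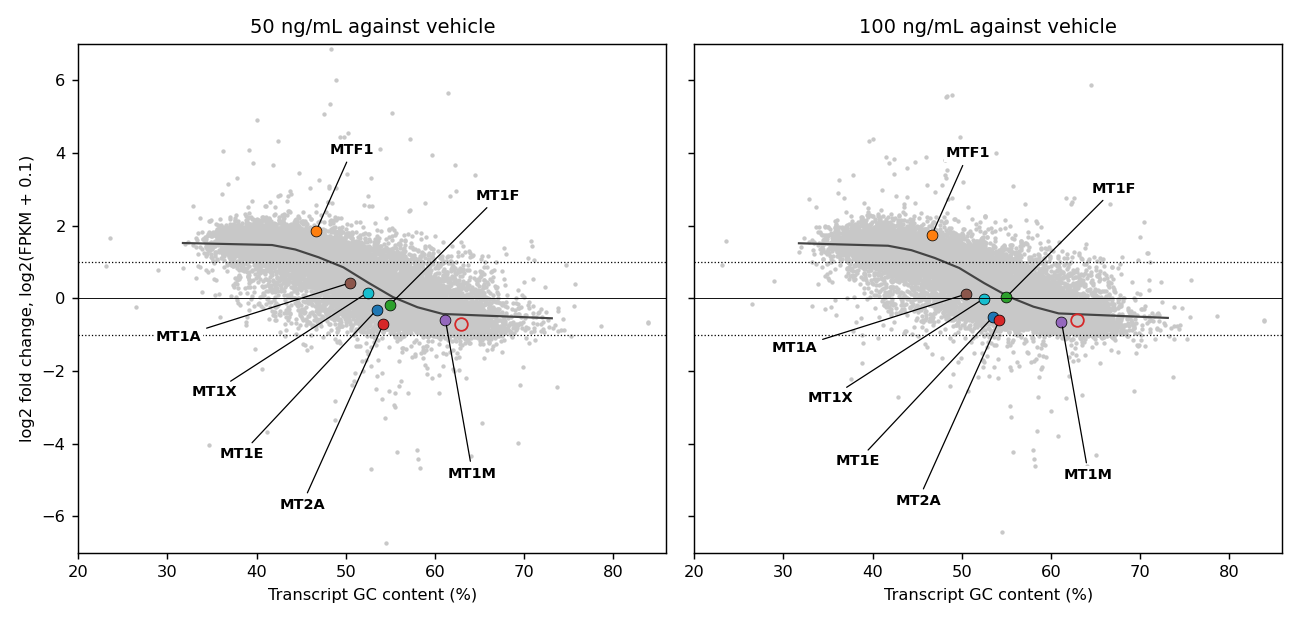
Log2 fold change against vehicle at 50 ng/mL (left) and 100 ng/mL (right) plotted against transcript GC content in percent for all symbols that passed the filter (grey), with the medians of deciles by GC content as a line and dotted lines at 2-fold. Coloured points are the 7 members that passed, and the open red circle places MT2A at the 63.0% of its longest coding transcript. MTF1 lies above the line and MT2A below it, and the open circle lies near the line.

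Transcript length moved with the folds less closely, with a Spearman correlation of 0.18 with the lower dose and 0.18 with the higher dose over the same symbols. Metallothionein transcripts are among the shortest, and MTF1 and SLC30A1 among the longest. The listed transcripts of the 6 metallothioneins had a median length between 396 and 704 bases, against 1152 over all symbols, while MTF1 had 7972 and SLC30A1 5474 bases. With the trend on length removed, MT2A had a log2 fold change of -1.20 with the lower dose and -1.08 with the higher dose, past 2-fold, and MTF1 had 0.73 and 0.67. The part of length was likewise not tested.

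Within 200 kb of the cluster on chromosome 16, the 4 genes described here that passed the filter and are no metallothioneins were above vehicle in both rhFGF19 libraries, as were 63.3% of all symbols. Another 2, neither of them a metallothionein, did not pass. BBS2, a ciliary gene, had 1.36 FPKM with vehicle, 4.03 with the lower dose and 3.78 with the higher dose. OGFOD1, a ribosomal protein hydroxylase, had 1.71, 4.62 and 4.36 FPKM. NUDT21, a subunit of the 3′ end cleavage factor, had 8.19, 15.18 and 15.03 FPKM, below 2-fold. NUP93, a nuclear pore protein, had log2 fold changes of 0.17 and 0.19. The transcripts of these 4 neighbours had a GC content of 37.4% to 49.8%.

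Within the cluster, MT1L, a transcribed pseudogene, passed the filter with 11.8 FPKM with vehicle, 6.05 with the lower dose and 9.93 with the higher dose. MT2P1, a processed pseudogene on chromosome 4 (68376323 to 68376505) that shares stretches of 50 bases with MT2A and MT1E, had 4.29, 2.37 and 3.59 FPKM. In both pseudogenes the vehicle library was the highest and the 50 ng/mL library the lowest, the order seen in MT2A. The sizes were unlike those of MT2A. Between the rhFGF19 libraries MT1L differed by 0.71 and MT2P1 by 0.58 on the log2 scale, against 0.11 for MT2A. With the higher dose their log2 fold changes were -0.24 and -0.25, against -0.60 for MT2A. MT1H, MT1DP and the processed pseudogene MT1P3 were at most 0.34 FPKM in any library.

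**Figure D4:**
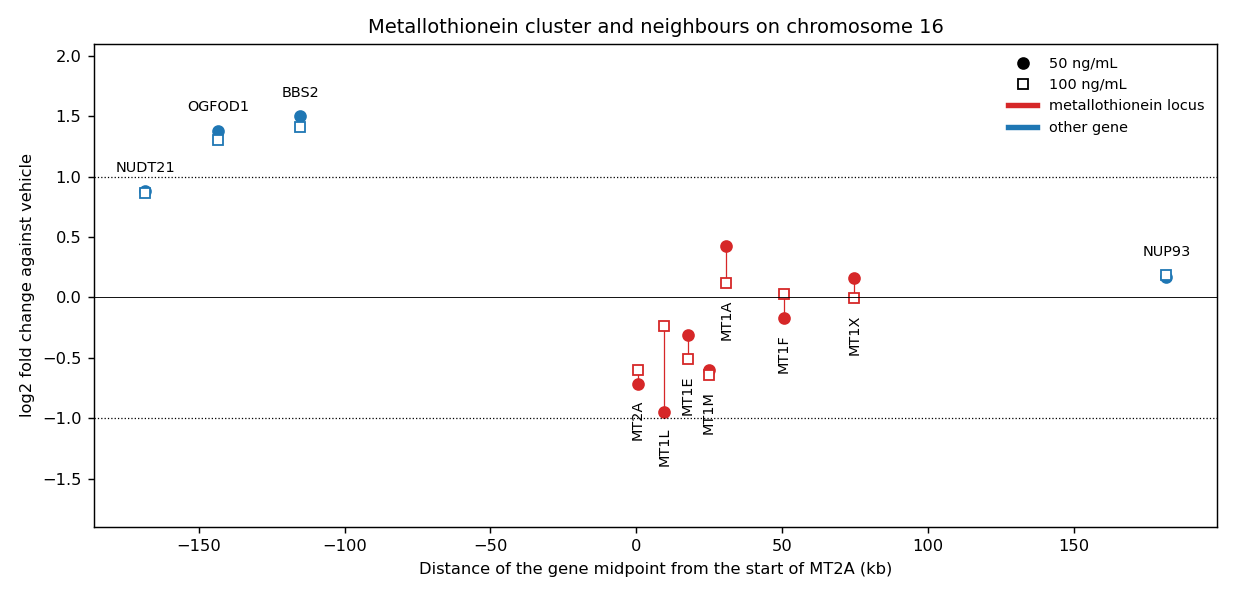
Log2 fold change against vehicle at 50 ng/mL (filled circles) and 100 ng/mL (open squares) of the metallothionein loci of the chromosome 16 cluster that passed the filter and of the 4 neighbours described, by the distance of the gene midpoint from the start of MT2A in kb. The metallothionein loci (red) lie between -0.95 and 0.43, and the other genes (blue) between 0.17 and 1.5.

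The transporters that carry zinc gave mixed results. Of the ZnT exporters other than SLC30A1, 6 of 9 passed the filter and 4 were more than 2-fold higher at both doses, with 0 lower. This is a share of 66.7%, where 36.3% of all symbols were more than 2-fold higher at both doses. The 4 were SLC30A9, SLC30A6, SLC30A7 and SLC30A5, which serve membranes inside the cell, with log2 fold changes from 1.47 to 1.78 with the lower dose. SLC30A9 had 1.07 FPKM with vehicle, 3.91 with the lower dose and 4.19 with the higher dose. Their GC content was 36.2% to 41.3%, and with the GC trend removed the median of the 6 exporters was -0.0011 with the lower dose and -0.015 with the higher dose. That median was 1.49 and 1.46 in the values as deposited.

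Of the ZIP importers, which bring zinc into the cytosol, 10 of 14 passed the filter, and 5 were more than 2-fold higher at both doses with 0 lower. The share of 50% rests on 10 genes and stands beside 36.3% of all symbols that were more than 2-fold higher at both doses. SLC39A10, a plasma membrane importer, had 1.48 FPKM with vehicle, 5.65 with the lower dose and 5.20 with the higher dose. SLC39A14, an importer of zinc and iron that is prominent in liver, had 7.98, 22.8 and 21.0 FPKM, 2.84-fold and 2.61-fold the vehicle level, at a GC content of 56.1%. SLC39A6 and SLC39A9 had log2 fold changes of 1.63 and 1.31 with the lower dose. Another 4 importers, SLC39A1, SLC39A3, SLC39A7 and SLC39A13, named after their values were seen, were below vehicle in both libraries with log2 fold changes between -0.68 and -0.22, as 31.8% of all symbols were below vehicle in both. Their GC content was 55.2% to 63.0%. SLC39A7, which releases zinc from the endoplasmic reticulum, had 135.2 FPKM with vehicle, 114.9 with the lower dose and 116.3 with the higher dose, and SLC39A1 had 104.3, 71.6 and 74.7. The 4 importers with the highest vehicle levels were thus the ones below vehicle. The median of the 10 was 0.86 and 0.83, and 0.17 and 0.095 with the GC trend removed.

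By the annotation in the deposited table, 17 genes belong to the cellular response to zinc ion, of which 8 are members here. Of the other 9 genes 6 passed the filter, 2 lay above 2-fold at both doses and 0 were lower, and their median log2 fold change was -0.039 with the lower dose and -0.15 with the higher dose. Of 25 genes of the cellular response to cadmium ion that passed, 28% were more than 2-fold higher at either dose, and of 15 genes of the response to copper ion 20% were, metallothioneins included. Each of these shares was below that of all symbols. The 6 metallothioneins that passed belong to both terms, and 0 of them were more than 2-fold higher. The low shares thus include the values of the members and are no separate result about other metal response genes. In these 3 terms 0 genes were more than 2-fold lower.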

How the data were processed

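Per the labels and the paper, poly(A)-selected paired-end libraries of LX-2 cells were sequenced and the authors mapped the reads with HISAT2. The submitters' processing notes list HISAT2 2.0, StringTie 1.3.0 and Bowtie 0.12.2, without their roles, and list the builds hg19 and mm8, whereas the coordinates overlapped GRCh38 for 99.9% of the 25531 identifiers found in GENCODE v29. The authors deposited FPKM values written to 2 decimals, 1 column per library. Their methods describe read counts scaled by depth on a log scale, which were not used here. FPKM values keep no read counts, so depth and counting error are unknown. The sums of the columns were 302243 for vehicle, 276690 for 50 ng/mL and 281606 for 100 ng/mL.

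From these values, rows sharing a gene symbol were summed, 0.1 was added, and differences of log2 values were taken where the mean reached 0.5 FPKM. A log2 difference above 1 or below -1 was counted, after the paper. Files held 1 library per condition, so no test was made. GC content and length were medians over each gene's listed transcripts (found for 99.8% of symbols), and a trend was subtracted as fitted by lowess (span 0.3). The genes named are the 9 members, other metallothionein loci, neighbours within 200 kb that passed the filter (1 of which is not reported here), the 5 genes most like the metallothionein sum, and at most 4 genes of each list that passed 2-fold at both doses. The lists covered zinc, copper and iron handling, metal stress, glucocorticoid response and cell type markers. Members and lists were chosen with earlier results of these data known. In all, 13 alternative settings were planned and 1 more, chosen after seeing the data, was added. The software was Python 3.11.15, NumPy 2.4.6, pandas 2.3.3, SciPy 1.17.1, statsmodels 0.14.6, Biopython 1.88 and Matplotlib 3.10.9, and were tested on simulated data.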

Additional observations from a re-analysis of the deposited data

How the results depend on the processing

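With 1 library per condition, no replicate could be left out, and no paired analysis was possible because every group is a single sample with no test. A value was taken to have moved when it differed by more than 0.32, the SD of the difference between the rhFGF19 libraries over all symbols. MT2A, MT1E and MT1M were below vehicle and MTF1 above it under all 14 settings at both doses. MT1A, MT1F and MT1X lay on both sides of 0 at either dose. Not every setting could have changed these directions. Dropping the filter, raising it to a mean of 1 FPKM and taking the highest row per symbol left the values of these members as reported. Exchanging or averaging the doses only exchanged or averaged the reported levels. The fold change of MT2A ranged from -1.20 to -0.25 at 50 ng/mL and from -1.08 to -0.16 at 100 ng/mL, that of MTF1 from 0.72 to 2.13 and from 0.65 to 2.01. Under the alternatives, 144 values of single members differed from those reported by less than that SD and 38 by more. The 144 include the values that such settings left as reported. The cause of each move was not tested, except where the setting itself sets it.

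The count of members more than 2-fold higher was 1 at each dose. It was 0 at both doses with a pseudocount of 1, when the trend on length or either trend on GC was removed, and with a log2 threshold of 2, and 0 at 100 ng/mL with quantile normalization. It was 2 at both doses when low values were not filtered out and with rescaling to TPM, where SLC30A1 entered. The count of members more than 2-fold lower was 0 and became 1 at both doses with the length trend removed (MT2A) and with no filter (MT1G, from 0.12 FPKM). The median of the members that passed was -0.17 at 50 ng/mL and -0.56 with the length trend removed. At 100 ng/mL it was -0.0083, and -0.39 with the length trend removed, -0.43 with the GC trend removed and -0.61 with quantile normalization. Rescaling to TPM turned this median positive, to 0.12 and 0.11, over the 8 members that then passed. The summed metallothioneins had -0.70 and -0.60, against -1.18 and -1.08 once the trend on length was removed. With the GC trend of the longest coding transcript removed, an alternative chosen after seeing the data, they had -0.25 and -0.17. Trend removal and quantile normalization centre the fold changes of all symbols near 0, at a median of 0.045, 0.0073 and 0.078 at 50 ng/mL for the length trend, the GC trend and quantile normalization, against 0.62 as reported. A direction under these settings is thus relative to other genes. Exchanging the doses exchanged the values and changed no count.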

Other observations

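Genes of iron handling differed among themselves as the zinc genes did. FTL and FTH1, the ferritin subunits that store iron, named after their values were seen, were listed at 8707 and 2562 FPKM with vehicle, 5298 and 2013 with the lower dose, 5401 and 2054 with the higher dose. TFRC, the transferrin receptor, had 2.97, 10.9 and 11.1 FPKM, and IREB2 and ACO1, the iron-sensing regulators of their mRNAs, were more than 2-fold higher at both doses, as was the importer SLC11A2. Of the 8 iron genes, all of which passed, 4 were above 2-fold at both doses and 0 lower, where 36.3% of all symbols were above 2-fold at both doses. The 4 had a GC content of 38.6% to 47.7%, and FTH1, FTL and HMOX1, which were below vehicle, had 53.5% to 60.8%. With the GC trend removed, the median of the 8 was 0.058 with the lower dose and 0.078 with the higher dose.

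Of 10 metal stress genes 5 were more than 2-fold higher at both doses, against that 36.3% of all symbols, and 0 were lower. Their median was 0.94 with the lower dose and 0.92 with the higher dose, and 0.36 and 0.26 with the GC trend removed. GCLC, which catalyses the first step of glutathione synthesis, had 0.43 FPKM with vehicle and 1.65 at both doses, SLC7A11, the cystine importer, had 1.52, 5.72 and 5.06, and TXNRD1, thioredoxin reductase, had 10.9, 36.9 and 37.5. HSPH1, a heat shock protein, had log2 fold changes of 1.74 and 1.55. The other heat shock genes of the list, HSPA1A, HSPA1B and DNAJB1, were named after their values were seen. Their log2 fold changes lay between 0.046 and 0.16 at both doses, at higher levels of 114.9, 112.9 and 42.4 FPKM with vehicle. HMOX1, which breaks down haem and is known to respond to metals, was at 18.8, 14.9 and 14.6 FPKM.

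Of 9 copper genes that passed, 2 were more than 2-fold higher, the importer SLC31A1 and SCO1, and 1 was lower, SCO2, with 6.06 FPKM with vehicle, 2.65 with the lower dose and 2.54 with the higher dose. Of all symbols, 36.3% were more than 2-fold higher at both doses, and 1.75% and 1.47% lower at each. The median of the 9 was 0.16 and 0.23, and turned to -0.64 and -0.61 with the GC trend removed. SCO1 and SCO2 both deliver copper to cytochrome c oxidase, at a GC content of 45.5% and 65.1%. Of the 8 glucocorticoid response genes that passed, 5 were more than 2-fold higher at both doses, where 36.3% of all symbols were, and 0 lower. Their median was 1.35 and 1.38, and 0.27 and 0.38 with the GC trend removed. NR3C1, the glucocorticoid receptor, had 1.62, 5.66 and 5.12 FPKM, and FKBP5, SGK1 and ERRFI1 had log2 fold changes of 1.31, 1.75 and 1.41 with the lower dose. TSC22D3 and PER1, well-known targets of the receptor, named after their values were seen, lay between -0.17 and -0.023 at both doses.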
